A study of Mus musculus with 17 samples.

Results

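Accessible chromatin was compared between unstimulated bone marrow-derived macrophages (BMDMs) that lack Nur77 and those that have it. Nur77 is the orphan nuclear receptor encoded by Nr4a1. The comparison rests on 6 of the 17 ATAC-seq peak lists of the study, 3 from knockout (KO) and 3 from wild-type (WT) cells at 0 h, and the other 11 lists were made after lipopolysaccharide (LPS). In each list, peaks that share an interval were collapsed to the one with the smallest p-value. The best 24389 of each list, the number in the shortest of the 17, were kept, so that every list carried equal numbers of peaks. Peaks that overlapped by at least 1 bp were merged, which gave 34158 consensus sites seen in at least 2 lists. A KO-only site had a kept peak in all 3 KO lists and in none of the 3 WT lists at 0 h, and a WT-only site had the reverse. There were 116 KO-only sites, 0.34% of all consensus sites, and 204 WT-only sites, 0.597%. Together these 320 genotype sites are described here, and 18053 sites carried a peak in all 6 lists.

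KO mice came from a cross of mice with a loxP-flanked Nr4a1 gene to mice that express Cre recombinase from the human cytomegalovirus promoter. The deletion was therefore in the whole body and not limited to macrophages, and Cre was bred out afterwards. WT mice were littermates. The sample labels give the strain of both as C57Bl6/J and write the genotype of the KO samples as "cre". Donor mice were male and 6 to 12 weeks old, and marrow was cultured for 7 days with L929-conditioned medium. Cells at 0 h received no LPS, and cells of the LPS lists received 100 ng/ml for 1 or 18 h (3 lists a group, 2 for WT at 1 h). The labels do not say whether replicates came from separate mice or cultures, nor whether the 0 h and LPS samples of one replicate number shared a mouse. The p-values below measure the spread between these samples only.

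Nur77 belongs to the Nr4a family with Nr4a2 and Nr4a3. It binds DNA as a monomer at a motif called NBRE and is induced early in macrophage activation. AP-1, a family of Fos and Jun dimers, drives much of the macrophage response to LPS. ATAC-seq reads open DNA through the cuts of the Tn5 transposase, so a peak marks a promoter or enhancer that was accessible and says nothing of transcription.

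Depth was uneven within the KO group. The lists held 63608, 63097 and 71456 intervals in WT replicates 1 to 3, and 70397, 37514 and 27429 in KO replicates 1 to 3. The background level recovered from the peak columns, an index of depth, was 6.12, 5.11 and 9.75 reads per kb in WT and 7.65, 1.53 and 0.720 in KO, so KO replicate 1 was as deep as WT while KO replicates 2 and 3 were shallow. Pairs of lists were compared by the Jaccard index, their shared sites divided by the sites in either. It was 0.884 to 0.891 between WT lists, 0.775 to 0.831 between KO lists and 0.768 to 0.882 between genotypes, and KO replicate 1, the deep KO list, was nearer to each WT list (0.869 to 0.882) than to KO replicates 2 and 3 (0.831 and 0.781). Promoters of 8 of 10 macrophage markers, Adgre1, Itgam and Spi1 among them, carried a peak in all 6 lists at 0 h, Cd68 in 4 and Csf1r in 2. No promoter of the B cell (6 genes), erythroid (6) or epithelial (4) markers carried a peak in any list. Of the remaining markers Cd3d and Cd28 (T cell) and S100a8 (neutrophil) had one in all 6 lists, and Col1a1 (stromal) in 5. No marker promoter was KO-only or WT-only.

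Most genotype sites were weak peaks that stood on either side of the limit. Ranks count from 1, the smallest p-value of a list. The median of the mean rank in the lists that carried a site was 20447 for KO-only and 21432 for WT-only sites, within ranges of 4532 to 24096 and 3023 to 23856, and only 5 and 3 sites had a mean rank better than 10000. Of the 116 KO-only sites, 108 carried a lower-ranked peak in all 3 WT lists. Over the 110 with one in any WT list, the median best WT rank was 26071. The 2 KO-only sites just inside the limit had a worst KO rank of 24375 and 24367, and the 2 just outside 24395 and 24437. For WT-only sites those ranks were 24389 and 24386 inside, 24391 and 24402 outside. Of the 204 WT-only sites, 69, 110 and 18 carried a lower-ranked peak in 1, 2 and 3 of the KO lists. The deep KO replicate 1 carried one at 96.6% of WT-only sites, KO replicate 2 at 59.8% and the shallow KO replicate 3 at 11.8%. Absence at any rank in the whole lists was met at 6 KO-only and 7 WT-only sites, 13 of the 320. With 1 list at 0 h left out, so that fewer lists had to match, 162 to 332 KO-only and 290 to 854 WT-only sites were found, both highest without KO replicate 1.

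Of the genotype sites, 8 kept their pattern in all 17 lists, that is, also in each of the 11 LPS lists. They were 6 of 116 KO-only sites (5.17%) and 2 of 204 WT-only sites (0.980%). Among all consensus sites, 0.0234% were KO-only in every LPS list and 0.0205% WT-only, 8 and 7 sites. No genotype site had the opposite pattern in every LPS list. The count of 8 fell to 3 among the 10000 best peaks, to 2 where absence was required at any rank and to 0 where a peak had to cover at least 50% of a site. The 201 bases around the summit of 7 of these sites follow, since they are the loci at which genotype and accessibility went together at every time. They are from the plus strand of GRCm38, the build of the peak lists (mm10). Capitals mark matches, on either strand, to AP-1 (TGACTCA or TGAGTCA), C/EBP (TTACNNAA or TTGCNNAA), PU.1 (GAGGAAGT), NF-kB, ISRE, CTCF or NBRE (AAAGGTCA), the monomer motif of Nur77.
Pebp4 intron site 1 (KO-only), chr14:70000643-70000843: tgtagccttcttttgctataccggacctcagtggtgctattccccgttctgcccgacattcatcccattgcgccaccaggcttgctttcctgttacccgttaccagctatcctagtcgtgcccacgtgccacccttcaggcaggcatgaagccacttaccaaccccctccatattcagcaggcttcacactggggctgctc
Pebp4 intron site 2 (KO-only), chr14:69851262-69851462: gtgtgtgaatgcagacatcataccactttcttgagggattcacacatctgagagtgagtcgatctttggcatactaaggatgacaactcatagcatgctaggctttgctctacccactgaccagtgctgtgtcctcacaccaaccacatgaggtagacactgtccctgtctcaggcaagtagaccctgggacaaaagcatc
Ano6 intron (KO-only), chr15:95828149-95828349: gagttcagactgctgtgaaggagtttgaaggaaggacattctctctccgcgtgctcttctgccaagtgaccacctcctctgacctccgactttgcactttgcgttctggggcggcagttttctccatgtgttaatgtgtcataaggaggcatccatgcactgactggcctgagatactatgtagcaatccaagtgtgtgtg
Mtus1 intron (KO-only), chr8:41057430-41057630: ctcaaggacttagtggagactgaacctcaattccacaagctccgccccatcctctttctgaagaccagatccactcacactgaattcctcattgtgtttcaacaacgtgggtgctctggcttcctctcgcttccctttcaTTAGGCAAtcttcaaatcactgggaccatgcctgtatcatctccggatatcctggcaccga
Near Ifi203 and Ifi202b (KO-only), chr1:173961580-173961780: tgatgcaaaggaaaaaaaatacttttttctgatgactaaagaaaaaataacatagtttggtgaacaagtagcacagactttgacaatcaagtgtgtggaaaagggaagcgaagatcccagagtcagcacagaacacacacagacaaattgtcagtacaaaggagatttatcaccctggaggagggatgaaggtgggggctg
Near Serpina3n (KO-only), chr12:104415763-104415963: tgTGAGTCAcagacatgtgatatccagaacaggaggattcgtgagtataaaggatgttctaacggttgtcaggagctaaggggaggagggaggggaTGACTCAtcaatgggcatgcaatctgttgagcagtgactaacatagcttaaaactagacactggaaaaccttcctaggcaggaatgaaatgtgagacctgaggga
Near Ddr2 (WT-only), chr1:170136478-170136678: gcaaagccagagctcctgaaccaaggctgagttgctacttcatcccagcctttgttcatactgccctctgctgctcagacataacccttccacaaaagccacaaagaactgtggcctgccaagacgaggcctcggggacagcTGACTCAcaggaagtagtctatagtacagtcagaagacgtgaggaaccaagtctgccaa

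Both Pebp4 sites lay in introns of the gene for a phosphatidylethanolamine-binding protein, and neither window held a match. At chr14:70000305-70001250 the KO ranks were 7664, 6004 and 13205 at 0 h, 8441, 16717 and 7845 at 1 h, and 5545, 5131 and 5334 at 18 h. None of the 8 WT lists had a peak there at any rank. At chr14:69850589-69851628 the KO ranks were 20846, 12730 and 19824 at 0 h, 17540, 14592 and 11969 at 1 h, and 8701, 20409 and 14596 at 18 h, again with no peak at any rank in WT. These 2 sites were the only genotype sites kept in every LPS list that were also absent at any rank from every list of the other genotype.

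The other 4 KO-only sites of this kind had weak WT peaks below the limit. The Ano6 site lay in an intron of the gene for a calcium-activated phospholipid scramblase (chr15:95827755-95829223). It ranked 6084, 5657 and 4511 in KO at 0 h, against 61826, 61241 and no peak in WT. The site of Mtus1, which encodes a microtubule-associated protein (chr8:41056945-41057966), in an intron 2736 bp from a transcription start site (TSS), ranked 11576, 10653 and 11690 in KO and 48468, 46105 and 50655 in WT. An intergenic site at chr1:173961101-173962154 lay between Ifi203 and Ifi202b, members of the interferon-inducible family that contains DNA sensors. It ranked 11922, 12235 and 13993 in KO at 0 h and 38143, 29194 and 35329 in WT. At 18 h it ranked 3355, 7194 and 4702 in KO. This gene family has near-identical copies, so the assignment of its reads is uncertain. A site 9134 bp from a TSS of Serpina3n, an acute-phase inhibitor of serine proteases (chr12:104415333-104416137), ranked 14569, 13510 and 14461 in KO against 56855, 51609 and 59973 in WT. Its window held 2 AP-1 matches.

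A WT-only site of this kind held an AP-1 match and lay 25849 bp from a TSS of Ddr2, which encodes a collagen receptor kinase (chr1:170136250-170137005). It ranked 10512, 9149 and 10724 in WT at 0 h, 29467 in KO replicate 1, and was absent from KO replicates 2 and 3. In the LPS lists it ranked 13564 to 16828 in WT, and in KO only the 1 h replicate 1 list had a peak, at rank 37025. The shallow lists cannot hold ranks as low as those of the deep ones, so absence from them is the weaker observation.

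**Figure D1:**
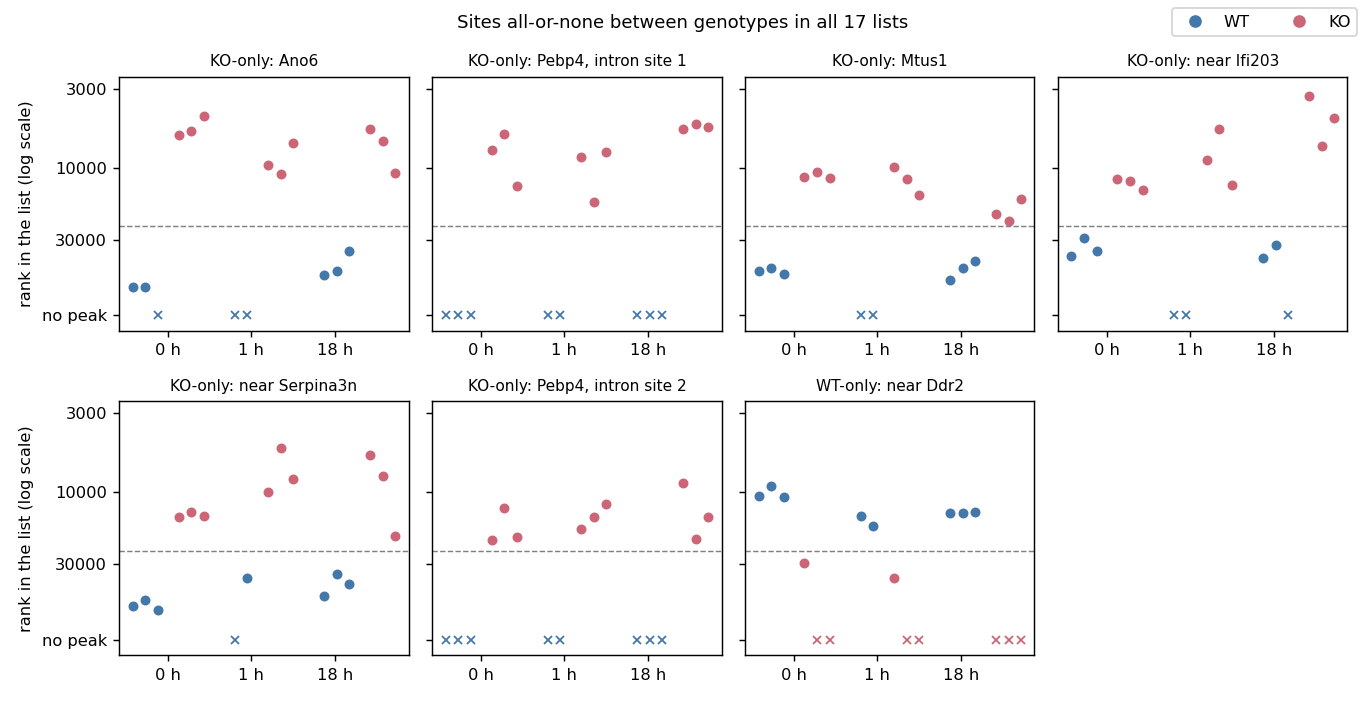
Rank of the best peak at 7 of the 8 sites that were all-or-none between genotypes in all 17 lists, on a reversed log scale, with 1 point per list (blue WT, red KO), crosses for lists with no peak and the limit of 24389 as a dashed line. All points of one genotype lie above the line and all points of the other below it, and the 2 Pebp4 sites show no WT peak.

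The best-ranked site of each direction at 0 h was not among these 8. The best-ranked WT-only site was intergenic, 35918 bp from a TSS of Hfe2, the gene for the iron regulator hemojuvelin (chr3:96487038-96489872). It ranked 3119, 3315 and 2634 in WT at 0 h and had no peak at any rank in KO. At 18 h it ranked 5725, 6103 and 6893 in WT and was absent from KO, and at 1 h it ranked 6171 in WT replicate 3 and was absent from WT replicate 1-2, the shallowest of the 17 lists. The best-ranked KO-only site lay 11965 bp from a TSS of Plxnd1, a semaphorin receptor (chr6:116006175-116008472). It ranked 3264, 5059 and 5273 in KO and 32457, 40673 and 36814 in WT. All 6 KO LPS lists kept it and 1 of 5 WT LPS lists had it within the limit, at rank 24132. Both windows are printed with the best-ranked promoter site, that of Ankrd35, and with a pair of neighbouring sites near Cd5l that is described below. Of the Hfe2 window, 70.1% of bases are masked as repeats in the RefSeq genome, against 11.9% of the Plxnd1 window.
Near Hfe2 (WT-only), chr3:96489154-96489354: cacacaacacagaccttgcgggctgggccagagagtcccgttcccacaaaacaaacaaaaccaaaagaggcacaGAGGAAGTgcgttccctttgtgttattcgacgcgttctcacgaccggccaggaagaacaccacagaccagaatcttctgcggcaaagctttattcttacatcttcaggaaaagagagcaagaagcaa
Near Plxnd1 (KO-only), chr6:116006870-116007070: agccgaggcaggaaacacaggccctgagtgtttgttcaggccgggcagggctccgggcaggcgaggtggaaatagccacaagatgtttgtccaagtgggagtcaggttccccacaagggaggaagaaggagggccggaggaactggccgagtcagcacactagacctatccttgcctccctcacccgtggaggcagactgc
Ankrd35 promoter (WT-only), chr3:96670056-96670256: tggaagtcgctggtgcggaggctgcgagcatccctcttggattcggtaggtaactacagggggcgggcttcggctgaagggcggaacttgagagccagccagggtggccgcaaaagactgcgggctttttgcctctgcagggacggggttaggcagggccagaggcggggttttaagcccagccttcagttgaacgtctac
Near Cd5l (KO-only), chr3:87330893-87331093: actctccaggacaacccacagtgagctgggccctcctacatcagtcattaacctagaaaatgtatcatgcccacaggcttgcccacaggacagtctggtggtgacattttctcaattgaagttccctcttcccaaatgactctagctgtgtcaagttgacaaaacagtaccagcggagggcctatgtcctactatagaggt
Near Cd5l (WT-only), chr3:87332079-87332279: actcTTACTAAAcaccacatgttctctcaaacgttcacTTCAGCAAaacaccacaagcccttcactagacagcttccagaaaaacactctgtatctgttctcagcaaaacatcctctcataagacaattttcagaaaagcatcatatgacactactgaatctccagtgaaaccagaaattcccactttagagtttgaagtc

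The other KO-only sites absent from WT at any rank were read in full. A site 4007 bp from a TSS of the histone gene Hist2h2bb (chr3:96273500-96276654) ranked 12802, 12945 and 11578 in KO at 0 h, and histone genes of this cluster are near-identical copies, so the assignment of its reads is uncertain. An intron of Ufsp2, a protease of the UFM1 modifier (chr8:45995538-45996309), carried ranks of 14350, 17225 and 19302. A site 39392 bp from Gfra2, a receptor of the GDNF family (chr14:70980698-70981699), carried ranks of 17947, 13726 and 23528 and was found in 5 of 6 KO and 0 of 5 WT LPS lists. The promoter site of Mtus1 (chr8:41016048-41016814) ranked 16470, 21730 and 20133. None of these 4 sites had a peak at any rank in any of the 8 WT lists.

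Egr3 encodes a zinc-finger factor of the early growth response family. A site 16617 bp from it (chr14:70060102-70061137) ranked 9685, 6789 and 11704 in KO and 53258, 37996 and 53541 in WT, and was found in 5 of 6 KO and 1 of 5 WT LPS lists. A site in an intron of Mid1 on the X chromosome (chrX:169980159-169981642) ranked 8177, 6798 and 9465 in KO and 27075, 25905 and 28217 in WT. Mid1 spans the pseudoautosomal boundary, where X and Y share sequence, so read assignment is uncertain there too.

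Of the 7 WT-only sites absent from KO at any rank, that near Hfe2 is given above. A site 18635 bp from Slc11a2, the gene for an iron transporter (chr15:100443071-100444207), ranked 13591, 11976 and 13814 in WT. An intron of Fcrl1, of the Fc receptor-like family (chr3:87401064-87401933), carried WT ranks of 15079, 13790 and 13374. An intron of Sh3d19 (chr3:86109979-86110586) carried WT ranks of 13862, 19221 and 16057. Each of these was found in 3 or 4 of 5 WT LPS lists and in none of the 6 KO LPS lists. The other 3 were weaker, with mean WT ranks of 21594 (chr12:115311861-115312849, far from any protein-coding gene), 22174 (near Slamf9, a SLAM family receptor, chr1:172469692-172470457) and 22320 (near Dedd, a death effector protein, chr1:171326543-171326993). A WT-only site 60093 bp from Stc1, which encodes the hormone stanniocalcin (chr14:69088731-69090039), ranked 5236, 4320 and 6539 in WT and 26032 in KO replicate 1 alone. It was found in all 5 WT LPS lists and in 2 of 6 KO LPS lists.

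Some genotype sites lay close together, while every chromosome carried such sites. A cluster was a chain of at least 5 genotype sites of either direction with gaps of at most 2 Mb. There were 7 clusters, with 60 of the 320 genotype sites (18.8%). The intervals they span cover 0.861% of the genome and hold 749 consensus sites, 2.19% of all. The cluster rule chose these intervals by their genotype sites, so the excess within them is a description. The stronger sites were more often clustered, with 13 of the 20 genotype sites of best mean rank (65.0%) and 28 of the best 50 (56.0%) in a cluster. Of the 13 sites absent at any rank from the other genotype, 11 were clustered (84.6%), and so were 5 of the 8 sites kept in all 17 lists. Taken alone, those 13 sites formed no cluster, so their place in clusters rests on chains with the other genotype sites. By chromosome, genotype sites per 100 consensus sites were most frequent on chromosomes 3 (1.81), 14 (1.64) and 1 (1.35), against 0.937 overall and 0.493 on chromosome 9. The clustered share depended on the lists and the limit. Without KO 0 h replicate 1 it was 55.7% against 30.5% of consensus sites in the clusters then formed, without both shallow KO lists 53.5% against 29.9%, and among the 10000 best peaks of each list 3.94% against 0.156%. Chromosome Y had 1 genotype site among 12 consensus sites, a number too small to compare.

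**Figure D2:**
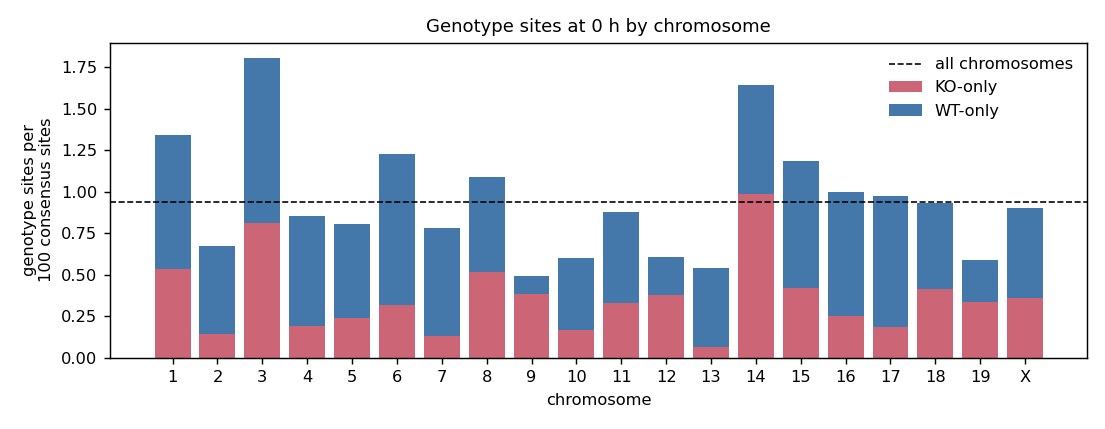
Genotype sites per 100 consensus sites on each autosome and the X chromosome (y axis), stacked by direction (red KO-only, blue WT-only), with the value over all chromosomes as a dashed line. Chromosome 3 is highest at 1.81 and chromosome 9 lowest at 0.493, and chromosome Y is not drawn.

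Each cluster held sites of both directions. Cluster 1 (chr1:170136250-173962154) held 4 KO-only and 8 WT-only sites among 158 consensus sites. Besides the Ddr2 and Ifi203 sites, it crossed the SLAM receptor genes, which encode adhesion and signalling receptors of leukocytes. There the promoter of Cd48 and a site near Cd244a were KO-only, and an intron of Cd84 and the site near Slamf9 were WT-only. The ranks at the Cd48 promoter were 15758, 16824 and 14691 in KO and 24973, 25738 and 25155 in WT.

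Cluster 2 (chr3:84125784-87401933) held 2 KO-only and 4 WT-only sites among 56. Its sites near Cd5l, the gene for a scavenger protein that macrophages secrete, were the only pair of neighbouring genotype sites of opposite direction within 10 kb, of 6 neighbouring pairs at that distance. A gap of 506 bp parted them. The KO-only site (chr3:87330662-87331309) ranked 15388, 22068 and 13650 in KO and 44302, 58733 and 52782 in WT. The WT-only site (chr3:87331816-87332677) ranked 19648, 15174 and 20634 in WT and 47972 in KO replicate 1, and was absent from the other KO lists. After LPS the KO-only site was found in 4 of 6 KO and 0 of 5 WT lists, and the WT-only site in none of the 11 lists. Both windows are largely repeats, with 64.7% and 53.2% of their bases masked, and the WT-only window held 2 C/EBP matches.

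Cluster 3 (chr3:95457473-97971763) held 3 KO-only and 6 WT-only sites among 114, the Hfe2, Ankrd35 and Hist2h2bb sites and WT-only sites 391 and 4707 bp from a TSS of Ctsk, the gene for the protease cathepsin K. Cluster 4, on chromosome 6, held 2 KO-only sites, both near Plxnd1, and 6 WT-only sites, among them a site at the promoter of the histamine receptor gene Hrh1. Cluster 5 (chr8:45875147-47192230) held 4 KO-only and 2 WT-only sites among 45, with 2 of the KO-only sites in Ufsp2. Cluster 6 (chr14:64941461-72564445) was the longest at 7.62 Mb, with 8 KO-only and 4 WT-only sites among 145. Besides the Pebp4, Egr3 and Gfra2 sites, it held a KO-only site near Dok2, an adaptor of myeloid signalling (chr14:70791951-70793172), which was found in 4 of 6 KO and 0 of 5 WT LPS lists.

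Cluster 7 (chr15:98789015-101253206) ended beside Nr4a1 itself. It held 3 KO-only and 4 WT-only sites among 130, and the last of them lay 1481 bp from the nearest Nr4a1 TSS (gene at chr15:101254269-101274795, plus strand). That WT-only site (chr15:101252454-101253206) ranked 23623, 21220 and 18607 in WT and 35236 in KO replicate 1, and was absent from the other KO lists and from the kept peaks of all LPS lists. Within the gene, peaks were present in both genotypes. A site 8438 bp into the gene (chr15:101262097-101263296) ranked 3736, 4767 and 5422 in WT at 0 h and 11739, 16962 and 18154 in KO, without overlap. At 1 h it ranked 3315 and 4973 in WT and 6613, 10238 and 9620 in KO. At 18 h it ranked 10085, 12169 and 10972 in WT and 22102 and 12117 in KO replicates 1 and 3, of which the latter lay within the WT range, and KO replicate 2 had no peak. The best promoter peak of Nr4a1 ranked 9646, 12884 and 14097 in WT at 0 h and 13515, 13269 and 18485 in KO, with overlap between genotypes. It lay 12486 bp into the gene, at another of its start sites, and at 18 h it ranked 34781, 25975 and 23412 in WT and was absent at any rank from the KO lists. The sources used here do not give the coordinates of the deleted part, so these peaks do not check the genotype. On the same chromosome, the Ano6 site and a WT-only site in an intron of Irak4 lay outside the cluster.

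Whether a site was KO-only or WT-only was read from the 0 h lists alone, so the LPS lists allowed a test. They did enter the merging of sites, and the limit was the length of one of them. With sites merged from the 6 lists at 0 h, 116 KO-only and 207 WT-only sites were found and the differences given below were 19.1 and -13.8 percentage points. With the length of the shortest 0 h list as the limit, there were 137 and 273 sites and differences of 17.6 and -11.4 points. In each list the share of KO-only sites with a kept peak was counted. It was 26.7% and 25.0% in the WT lists at 1 h, 50.9%, 49.1% and 50.9% in KO at 1 h, 26.7% in all 3 WT lists made at 18 h, and 33.6%, 45.7% and 42.2% in the KO lists at 18 h. Every KO list lay above every WT list. The difference, averaged over both times, was 19.1 percentage points (exact permutation test over lists with genotype exchanged within time, two-sided, p = 0.005, the smallest this design allows, adjusted p = 0.01 by Benjamini-Hochberg over 6 tests). Mean shares were 50.3 ± 0.995% (SD, n = 3) in KO against 25.9 ± 1.22% (n = 2) in WT at 1 h, and 40.5 ± 6.22% (n = 3) against 26.7% (SD 0, n = 3) at 18 h.

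For the WT-only sites, the share was 39.7% and 44.6% in WT at 1 h, 37.3%, 29.4% and 29.4% in KO at 1 h, 48.5%, 42.6% and 44.6% in WT at 18 h, and 27.9%, 27.5% and 29.9% in KO at 18 h. Every KO list lay below every WT list. The KO minus WT difference was -13.5 percentage points (exact permutation test, p = 0.01, adjusted p = 0.015). Without KO 0 h replicate 1 in the choice of sites, 854 WT-only sites were chosen and their difference was -6.15 points, past no threshold (exact permutation p = 0.22). The KO-only difference was then 7.78 points. With a peak required to cover at least 50% of a site, 13 KO-only and 398 WT-only sites were found, and neither difference passed the threshold (18.6 points at an exact permutation p of 0.215 and -11.0 points at 0.25). With all deposited peaks the WT-only difference was -8.00 points (exact permutation p = 0.41). The depth of the LPS lists overlapped between genotypes at 1 h, with 0.382 and 1.61 reads per kb in WT and 0.593 to 4.14 in KO, and was higher in WT at 18 h, with 4.62 to 8.38 against 1.10 to 1.76. With log2 depth as a covariate the differences were 19.7 and -11.9 points (exact permutation p = 0.015 for each). At 18 h the depths of the genotypes do not overlap, so this fit cannot part depth from genotype at that time.

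Clustered sites kept the genotype difference more than the others. The stronger sites were more often clustered, as given above, and sites were not matched on rank here. The part of rank in this difference was not tested. The 26 clustered KO-only sites carried a peak in 46.2% to 65.4% of cases in the 6 KO lists and in 11.5% to 23.1% in the 5 WT lists, a difference of 38.1 points (exact permutation test, p = 0.005, adjusted p = 0.01). The 90 other KO-only sites did so in 28.9% to 50% and 27.8% to 31.1%, a difference of 13.6 points (p = 0.015 in the exact permutation test, adjusted p = 0.018), and KO 18 h replicate 1 lay within the WT range. The 34 clustered WT-only sites carried a peak in 8.82% to 17.6% of cases in KO and 47.1% to 52.9% in WT, a difference of -36.8 points (exact permutation test, p = 0.005, adjusted p = 0.01). The 170 other WT-only sites did so in 30.0% to 41.2% and 37.1% to 47.6%, a difference of -8.82 points (exact permutation p = 0.02, adjusted p = 0.02), with overlap at 1 h. The difference between clustered and other sites was itself tested after the data had been seen, and was 24.5 points for KO-only sites (exact permutation p = 0.01) and -27.9 points for WT-only sites (exact permutation p = 0.005, adjusted p = 0.01 for each over 2 tests). Leaving out 1 list in turn took the p of other KO-only sites to 0.05 or above in 7 of 17 cases and that of other WT-only sites in 5. Without KO 0 h replicate 1 the clustered difference was 11.8 points for KO-only and -8.51 points for WT-only sites, the latter at p = 0.08 in the exact permutation test. Among the 10000 best peaks only 5 sites were clustered, and the clustered WT-only difference was 5.56 points (exact permutation p = 1). With a peak over at least 50% of the site, the clustered differences were 27.8 and -19.5 points (exact permutation p = 0.05 and 0.06), and with all deposited peaks the clustered WT-only difference was -12.1 points (exact permutation p = 0.22).

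**Figure D3:**
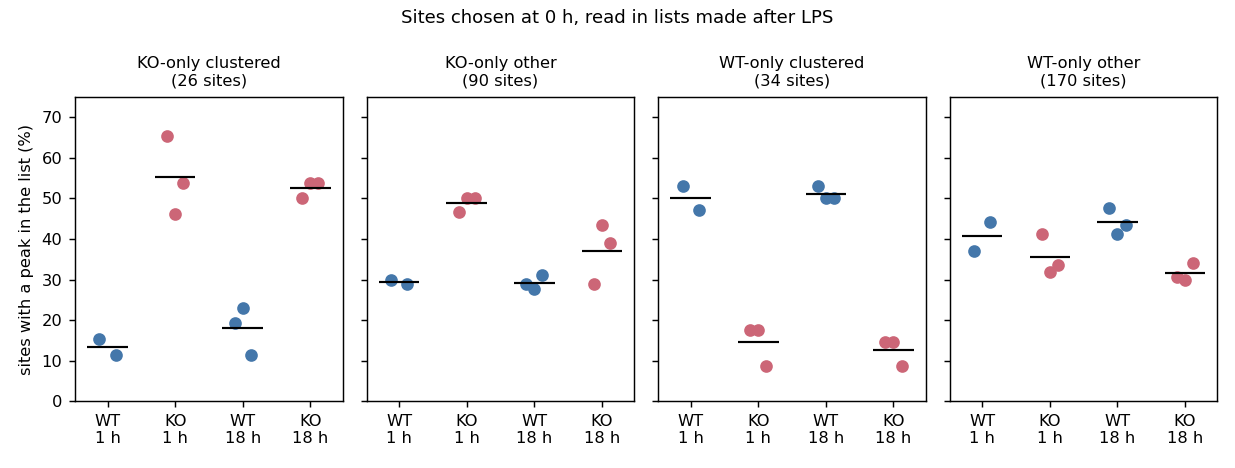
Share of the genotype sites chosen at 0 h with a kept peak in each list made after LPS (y axis, percent), for clustered and other sites of each direction, with 1 point per list (blue WT, red KO) and a line at the group mean. KO and WT points stand apart in both clustered panels, by 38.1 and -36.8 points on average, and the differences are 13.6 and -8.82 points, with some overlap, in the panels of other sites.

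Cluster by cluster, the direction at 0 h was seen again in most. In cluster 6 the 8 KO-only sites carried a peak in 68.8% of site and list pairs in the KO LPS lists and in 12.5% in the WT LPS lists. In cluster 1 these shares were 70.8% and 15.0% for the KO-only sites, and 8.33% and 50% for the WT-only sites. In cluster 3 the 6 WT-only sites were found in 19.4% of pairs in KO and 70.0% in WT. The genotypes were closer for the WT-only sites of cluster 6, with 16.7% in KO and 25.0% in WT. So they were for the KO-only sites of cluster 4, with 50% in KO and 40% in WT. Cluster 5 stood apart, with 50% in both genotypes for its 2 WT-only sites, of which that near Acsl1 was found in 5 of 5 WT and 6 of 6 KO LPS lists. The cluster intervals, fixed at 0 h, were also read for sites that were all-or-none at other times. Of all consensus sites, 1.25% were KO-only and 0.805% WT-only at 1 h, and 0.281% and 1.31% at 18 h. Some of these were genotype sites at 0 h as well and had served to form the intervals. Without those, the intervals held 15 of 411 KO-only (3.65%) and 13 of 266 WT-only sites (4.89%) at 1 h, and 5 of 85 (5.88%) and 21 of 431 (4.87%) at 18 h, against 2.04% of the other consensus sites. Of 7 sites that were all-or-none in every LPS list and not at 0 h, 3 lay inside the intervals.

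**Figure D4:**
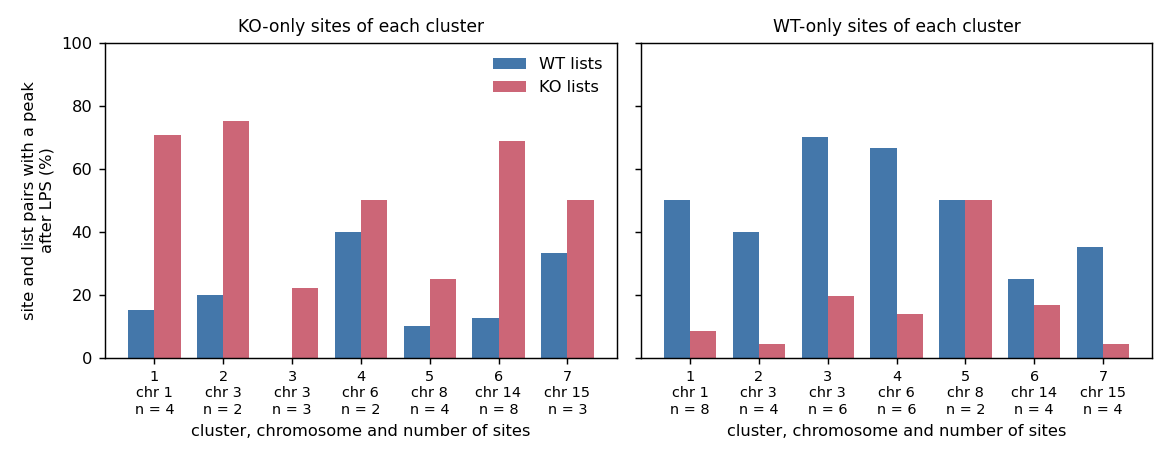
Share of site and list pairs with a kept peak after LPS (y axis, percent) for the KO-only sites (left) and WT-only sites (right) of each of the 7 clusters, in WT lists (blue) and KO lists (red). KO bars are the taller ones for KO-only sites in every cluster, and WT bars for WT-only sites in every cluster but the fifth, where both stand at 50%.

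Many genotype sites were no longer told apart by genotype after LPS. All 6 KO LPS lists carried 17 of the KO-only sites, and all 5 WT LPS lists carried 29 of the WT-only sites. In no LPS list of the other genotype were 50 and 60 sites found, which can include sites lost in both genotypes. The shares of all consensus sites by these counts are not given here, so the counts are a description. A site was called open in a genotype after LPS when at least 50% of that genotype's LPS lists carried it. Of the KO-only sites, 37 of 116 were open in KO alone (31.9%), 6 in WT alone, 22 in both and 51 in neither (44.0%). Of the WT-only sites, 43 of 204 were open in WT alone (21.1%), 19 in KO alone, 47 in both and 95 in neither (46.6%). Over all consensus sites, 9.18% were open in KO alone, 6.61% in WT alone, 59.3% in both and 24.9% in neither. Strictly all-or-none again in the same direction were 14 KO-only sites at 1 h and 11 at 18 h, and 9 and 15 WT-only sites. A WT-only site in an intron of Irak4, a kinase of Toll-like receptor signalling (chr15:94574620-94575504), shows the change. It ranked 18622, 17933 and 17991 in WT and 25213, 29638 and 25238 in KO at 0 h, and was found in all 11 LPS lists at ranks of 2985 to 19577. A KO-only site in an intron of Msr1, a scavenger receptor gene (chr8:39594631-39595291), ranked 17202, 22101 and 21508 in KO and 25630, 24824 and 25623 in WT at 0 h. It was absent from both WT lists at 1 h, while at 18 h it ranked 15777 to 16867 in WT and 10845, 24456 and 15703 in KO.

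Read by gene, the genotypes differed at few promoters. A peak was assigned to the promoter of a protein-coding gene where its summit lay at most 1 kb from a TSS. All 6 lists at 0 h had one at 9527 of 21938 genes. A KO-only promoter peak was found at 22 genes, 0.1%, and a WT-only one at 13 genes, 0.0593%. The sum of 35 genes rose to 47 to 144 with 1 list at 0 h left out, highest without KO replicate 1. Counted by any interval that reached into the promoter in place of the summit, there were 16 KO-only and 19 WT-only genes, so the direction with more genes turned over. At 6 of the 22 genes (0610012G03Rik, Ncbp2, Ddx6, Orai2, Polr2l and S100a10) all 3 WT lists had an interval that reached into the promoter with its summit outside, so these lists differed in the position of the summit while both genotypes had an open interval there. The same 6 genes were the only ones of the 35 without a promoter summit at any rank in the other genotype. Each of the 35 genes thus had some promoter peak in the other genotype, which at Mtus1 lay at another of its start sites. The other 16 genes were Cd48, Smco3, Igf2r, the receptor for mannose 6-phosphate, Plekhg5, Mtus1, Grin1, Gpc1, Btg3, Wnt1, Rragd, Il7, a growth factor of lymphocytes, Lzts2, Cfb, which encodes complement factor B, Btnl10, Pi4k2b and Pla2g4a, which encodes a phospholipase that releases arachidonic acid, and their WT lists held weaker promoter peaks below the limit. Smco3 ranked 15338, 20025 and 20440 in KO and 35384, 33797 and 28664 in WT at 0 h, and was found within the limit in 6 of 6 KO and 1 of 5 WT LPS lists. Mtus1 ranked 16470, 21730 and 20133 in KO, and its WT peaks, at another of its start sites, ranked 42402, 52173 and 41498.

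Among the 13 genes with a WT-only promoter peak, Ankrd35, an ankyrin repeat gene, ranked best. Its promoter (gene at chr3:96670131-96691032) ranked 7232, 8683 and 8039 in WT and 37046, 31065 and 25172 in KO at 0 h, and 3535 to 8943 in the WT LPS lists. Among the KO LPS lists, only KO 18 h replicate 3 had it within the limit. Trim30d, of a family of interferon-inducible TRIM genes with close copies, ranked 16737, 20615 and 16201 in WT and 62976 in KO replicate 1 alone. The others were Ccdc155, Nmral1, Fabp4, the fatty acid carrier of macrophages and adipocytes, Sept6, Tmem211, F2r, a thrombin receptor, Slc30a4, Gm14410, Gm2174, Ube2e2 and Ctf1, a cytokine of the interleukin-6 family. At Fabp4 the WT ranks were 21579, 19167 and 19599, and KO ranked 29468, 28301 and no peak. At 1 h both WT lists and 2 of 3 KO lists had it within the limit, so this difference was not seen at that time. The same promoter pattern held at 1 h for 3 of 22 KO-only genes (Cd48, Smco3 and Lzts2) and 2 of 13 WT-only genes (Ankrd35 and Trim30d), and at 18 h for 1 (Mtus1) and 0.

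Over whole gene loci, the body and 10 kb on either side, 23 genes (0.105%) had some peak in every KO list and none in any WT list, and 13 (0.0593%) had the reverse. Serpina3n was found in 6 of 6 KO and 0 of 5 WT LPS lists by this measure, and Ifi202b in 6 and 1. The locus of Gm47283 on chromosome Y was found in 6 KO and 0 WT LPS lists, and lies in sequence shared with the X chromosome. A KO-only site lay at the locus of 116 genes (0.529%) and a WT-only site at that of 189 (0.862%). None of 19 AP-1 family genes, 11 NF-kB genes, 28 LPS cytokines and chemokines or 19 interferon response genes had a genotype site at its locus. LPS sensing had 1 of 17 (Irak4, WT-only), the Nr4a family 1 of 3 (Nr4a1, WT-only), and a mixed list of lipid, chemokine and chemokine receptor genes tied to Nur77 and the sterol receptor LXR 2 of 14 (Msr1 and Cd36, KO-only). The Cd36 site, near the gene for a fatty acid and lipoprotein receptor (chr5:17773705-17780154), ranked 22493, 22233 and 16248 in KO and 27253, 29511 and 25969 in WT, and no LPS list had it within the limit.

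The 2 directions differed in sequence. Within 100 bp of the summit, 61 of 204 WT-only sites held an AP-1 match (29.9%, 95% Wilson interval 24.0% to 36.5%) and 13 of 116 KO-only sites (11.2%, 6.67% to 18.2%), against 16.2% of all consensus sites. The intervals of the 2 directions do not overlap, though sites are not replicates. Away from promoters, beyond 1 kb of any TSS, AP-1 was matched at 31.6% of WT-only and 12.2% of KO-only sites, against 21.5%. Of 1140 sites that had a peak in 3 of 6 lists at 0 h without being all-or-none, 17.1% held AP-1 (15.0% to 19.4%). Leaving out 1 list at 0 h in turn, the AP-1 share was 23.9% to 29.8% at WT-only and 9.64% to 13.5% at KO-only sites. Without both shallow KO lists it was 27.8% and 12.8%. Sites all-or-none after LPS held AP-1 in 22.2% (17.7% to 27.5%) of WT-only and 15.5% (12.3% to 19.2%) of KO-only sites at 1 h, and in 18.8% and 17.7% at 18 h, with overlapping intervals at both times.

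The motif of Nur77 itself was rare. NBRE was matched at 5 of 204 WT-only sites (2.45%, 1.05% to 5.61%), 0 of 116 KO-only sites (up to 3.21%) and 1.04% of all consensus sites, with overlapping intervals. PU.1, a lineage factor of macrophages, was matched at 12.9% of KO-only and 9.80% of WT-only sites, against 7.73% of all, and C/EBP at 21.6% and 25.0%, against 16.9%. Of the 60 clustered sites, 15.0% held AP-1 (8.10% to 26.1%), and of the 260 others 25.0% (20.1% to 30.6%). Genotype sites were less often at promoters than consensus sites in general, with 15.5% of KO-only (10.0% to 23.2%) and 8.33% of WT-only sites (5.27% to 12.9%) within 1 kb of a TSS, against 30.2%. The 1140 sites with a peak in 3 of 6 lists that were not all-or-none were there in 12.7% of cases (10.9% to 14.8%), an interval that overlaps both. A motif match describes the sequence and does not show that the factor was bound.

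**Figure D5:**
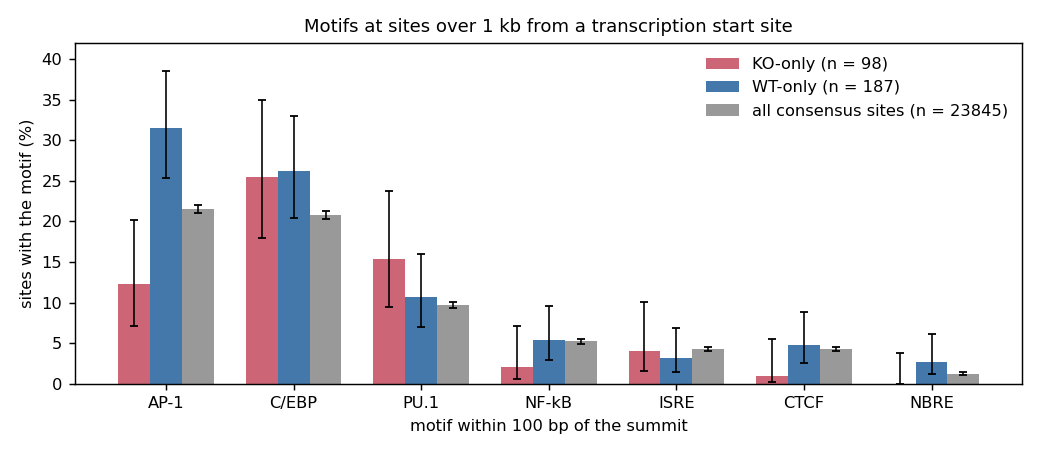
Share of sites over 1 kb from a TSS with a motif match within 100 bp of the summit (y axis, percent), for KO-only (red), WT-only (blue) and all consensus sites (grey), with 95% Wilson intervals. The AP-1 bars differ most, at 12.2%, 31.6% and 21.5%, and the intervals of KO-only and WT-only sites overlap for the other 6 motifs.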

How the data were processed

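Members and lists were chosen with earlier results of these data known. The 17 samples each had 1 deposited narrowPeak list and no counts. Per the submitters' processing notes and methods, the authors trimmed reads with cutadapt 2.6, mapped them to mm10, called peaks per sample and used DiffBind 3.0.15 for comparisons that are not used here. The peak caller is not given in the sources used here, nor is the handling of the Tn5 offset, and entry names record filters on mapping quality, mitochondrial reads, duplicates and q-value. The deposited columns hold a whole-number score and a fold ratio of pileup over background, both made by the authors' peak caller, the −log10 p and −log10 q of each peak, and the summit offset. The −log10 p depends on depth and was used only to rank peaks within a list.

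Ties at the limit of 24389 peaks were broken at random with seed 1. From the fold ratio and −log10 p, whole-read pileups were recovered, whose background level served as depth. Intervals on shares of sites are Wilson 95% intervals and cover counting error only. Genes and TSSs were from GENCODE vM21 and sequences from the RefSeq GRCm38.p6 genome. Motif searches covered 100 bp to each side of the summit and both strands. LPS shares were compared by exact permutation of genotype within LPS time, and differences between times by exact permutation of LPS time within genotype. Scripts used python 3.11.15, numpy 2.4.6, pandas 2.3.3 and scipy 1.17.1 and were tested on simulated data. Named were, in each direction, the 10 best-ranked sites with those absent at any rank from the other genotype first, all sites kept in 17 lists, up to 15 promoter genes, Nr4a1, sites at the limit and gene lists. Further sites of the clusters, such as those of Cd5l, Dok2, Ctsk and Acsl1, and promoter genes past the 15 were named after their values were seen. One site kept in 17 lists is not reported here. Whether replicate numbers pair the lists is not known, and the main tests did not pair them.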

Additional observations from a re-analysis of the deposited data

Results flagged for a closer look

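The KO minus WT difference in the share of KO-only sites with a kept peak was 24.4 percentage points at 1 h and 13.8 points at 18 h. The difference between both times was 10.6 points (exact permutation test with LPS time exchanged within genotype, two-sided, p = 0.02, adjusted p = 0.12 over 6 tests). It does not pass the correction. KO 18 h replicate 1 had the lowest share of the KO lists and the narrowest peaks, with a median width of 135 bp against 338 to 661 bp in the other 16 lists. With that list left out, 7.18 points remained (exact permutation p = 0.04). The part of peak width in this value was not tested. The 5 other differences between times had an exact permutation p of 0.07 to 0.52.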

How the results depend on the processing

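Counts and shares of sites moved with the choice of peaks, and the direction after LPS held under the alternatives tried apart from 1 value. With the 10000 best peaks there were 46 KO-only and 81 WT-only sites, 3.94% clustered and 3 kept in every LPS list, and the clustered WT-only difference turned to 5.56 points (exact permutation p = 1). With the number of the shortest 0 h list the difference of other WT-only sites was -7.21 points (exact permutation p = 0.055). With all deposited peaks there were 9 KO-only and 1009 WT-only sites, 42.8% clustered (19.5% of consensus sites in those clusters), and differences of -8.00 points for WT-only (exact permutation p = 0.41), -12.1 for clustered WT-only (p = 0.22), -5.02 for other WT-only (p = 0.615) and 66.7 for other KO-only sites (p = 0.05). With a peak over at least 50% of the site there were 13 and 398 sites, 0 kept, and differences of 18.6 and -11.0 points (exact permutation p = 0.215 and 0.25), 27.8 and -19.5 for clustered (p = 0.05 and 0.06) and 15.8 and -9.22 for other sites (p = 0.34 for each). With absence from whole lists there were 6 and 7 sites, 0% clustered, 2 kept and 6 promoter genes instead of 35. At all of those genes an interval of the other genotype reached into the promoter. The differences of these few sites were 66.7 and -51.2 points (exact permutation p = 0.005 for each). Gaps of 1 and 5 Mb gave 14.1% and 33.1% clustered, against 1.34% and 7.27% of consensus sites.

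Leaving out 1 list gave 162 to 332 KO-only and 290 to 854 WT-only sites, 18.0% to 55.7% clustered, 8 to 11 kept and 47 to 144 promoter genes. Differences ranged from 7.78 to 20.8 points for KO-only and -14.8 to -6.15 for WT-only sites, 11.8 to 40.4 and -38.2 to -8.51 for clustered, and 2.36 to 15.6 and -10.6 to -3.26 for other sites. Without both shallow KO 0 h lists there were 646 KO-only and 544 WT-only sites, 53.5% clustered, so the direction with more sites turned over. The differences were then 6.79 and -8.85 points (exact permutation p = 0.005 and 0.015). This alternative and that of promoter peaks by interval were chosen after seeing the data. The AP-1 share of WT-only sites was 23.9% without KO 0 h replicate 1. With a replicate block, the 4 pairs gave 16.8 and -16.4 points (exact permutation p = 0.125 for each, the smallest they allow). Same-numbered lists at 0 h and 18 h correlated at -0.19 to 0.07. Such values do not settle whether the numbers mark pairs. Promoter genes were not run with the 50% cover or 6-list sites, since they use summits. Depth limits what absence from a list can show, with 0.382 to 9.75 background reads per kb over the 17 lists. The cause of these changes was not tested.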

Other observations

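Chains built from the sites that were all-or-none at 1 h or at 18 h, by the same gap and size, numbered 31 and 15. Those at 1 h overlapped clusters 1, 3, 4, 6 and 7 of the unstimulated cells, and those at 18 h clusters 1, 3, 4 and 6. Repeats made up 14.0% of the bases around KO-only summits and 12.6% around WT-only summits on average, against 10.1% at all consensus sites. Beyond 1 kb of any TSS, repeats made up 15.3% and 13.1%, against 12.1%.

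A KO-only site 3477 bp from a TSS of Methig1 in cluster 7 (chr15:100349372-100350209) stood at better ranks at 18 h than at 0 h in both genotypes. It ranked 20925, 19061 and 22354 in KO and 40487, 35824 and 39746 in WT at 0 h, and 1488, 7515 and 4933 in KO and 17227, 16377 and 16870 in WT at 18 h. The genes there are close copies of each other, so read assignment is uncertain.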
